A study of Mus musculus with 24 samples.

Results

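Neurons are built around a cytoskeleton of neurofilaments and microtubules, and 10 genes of this system were followed here through mouse stem cell-derived motor neuron cultures. They were taken by name from the deposited table of 22889 gene entries and comprise the neuronal intermediate filament genes Nefl, Nefm, Nefh, Prph and Ina, the microtubule genes Tubb3, Mapt, Map2 and Stmn2, and the growth cone gene Gap43. All 10 were found, each in 1 row, and all 10 were above 0 RPKM (read counts divided by transcript length and by sequencing depth) in at least 2 samples, the filter applied before testing.

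Neurofilaments are heteropolymers of light, medium and heavy subunits, with alpha-internexin as a further partner in the central nervous system and peripherin in neurons that send axons out of it, including motor neurons. They fill large axons and set their calibre. Young neurons begin with tubulin beta 3, the microtubule-associated proteins and the growth cone protein GAP43, whereas the heavy neurofilament subunit is a late gene that rises as axons mature.

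The study compared oculomotor neurons, which control eye movement and are relatively spared in amyotrophic lateral sclerosis, with spinal motor neurons, which degenerate in that disease. The oculomotor cultures came from an Islet1-GFP mouse embryonic stem cell line in which the nestin enhancer drives Phox2a in neural progenitors, patterned as embryoid bodies with 250 nM SAG (a Smoothened agonist that switches on hedgehog signaling) and 100 ng/ml FGF8. The spinal cultures came from an Hb9-GFP line given 500 nM SAG with 100 nM retinoic acid. Both were patterned for 5 days, and sorting of each culture by GFP gave 4 groups of 6 samples: oculomotor GFP-positive, oculomotor GFP-negative, spinal GFP-positive and spinal GFP-negative. Each culture type rests on 1 reporter line, and line, reporter and patterning factors differ together, so their parts cannot be told apart. Neither the labels nor the methods state that the 6 samples of a group were separate cultures, so the p-values measure the spread between these samples, which may be technical in part. In bulk samples of this kind, fewer neurons and less RNA per neuron cannot be told apart.

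Depth, read from the steps of the RPKM values, ran from 752529 to 7675428 reads per sample. It was 752529 to 4642207 in the 16 samples with replicate numbers 1 to 4 and 4822576 to 7675428 in the 8 samples numbered 5 and 6. The sorted fractions carried their reporter genes: Isl1 lay between 141 and 369 RPKM in oculomotor GFP-positive samples and at or below 1.87 RPKM in the GFP-negative ones, and Mnx1 (Hb9) lay between 43.1 and 149 RPKM in spinal GFP-positive samples. Chat, the enzyme that makes acetylcholine, was low in both GFP-positive groups, at 1.29 to 13.1 RPKM in oculomotor and 0.31 to 8.22 RPKM in spinal samples. In the spinal GFP-negative sample 2, 3 predicted gene models held 68.8% of the summed RPKM, against 17.8% in its GFP-positive counterpart. Such a share lowers the RPKM of the other genes in that sample, and calls without it and after rescaling are given below. The spinal pair numbered 4 went against its labels. Mnx1 was 43.1 RPKM in its GFP-positive sample and 69.4 RPKM in its GFP-negative one, where the other spinal GFP-negative samples lay between 0.19 and 4.72 RPKM. Isl1 was 7.63 RPKM in its GFP-positive sample, where the other spinal GFP-positive samples had at least 50.4 RPKM, and 8.56 RPKM in its GFP-negative one. The profiles of that pair had a Pearson correlation of 0.96 across 11952 genes, where the other 11 pairs had 0.78 to 0.90, a description across genes. General neuron markers outside the 10 genes (7 genes, Elavl3 and Snap25 among them) summed to 24.9 RPKM in spinal GFP-positive 4 and to 142 to 491 RPKM in the other 5. Results that involve spinal samples are therefore given with and without the pair numbered 4.

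The 10 genes lie on 8 chromosomes of GRCm38. Nefl (chr14:68083863-68089095, plus strand) and Nefm (chr14:68082590-68124846, minus strand) are neighbours that face each other, and the annotation used here (GENCODE M21) gives Nefm a long transcript, so that its exons cover 1108 of the 3380 exon bases of Nefl. For 9 of the 10 genes a transcript length was found that turned every low value into a whole number of reads, within 0.001 of a read. For Nefm this length was 5782 bases, equal to all of its GENCODE exons merged, the shared bases included. Its longest transcript has 3680 bases, so the merged length lowers its RPKM relative to the other genes. The libraries keep no strand, and how reads from the shared bases were counted is not stated, so the split between Nefl and Nefm is uncertain. Map2 (chr1:66175273-66442583) was divided by 16449 merged exon bases although its longest transcript has 6258, which lowers its RPKM relative to the other genes.

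RefSeq promoters of the GRCm38.p6 assembly were at hand for 4 of the 10 genes, Prph, Ina, Tubb3 and Map2. The 120 bases before the start of 2 filament genes are shown, for Prph and Ina, because these genes have different levels and shares below, and because a TATA box of the searched form was found in 1 of them. Capitals mark matches on either strand to TATAAA and to GGGCGG, the GC box bound by Sp1, which reads CCGCCC on the other strand.
Prph, chr15:99055054-99055173, plus strand: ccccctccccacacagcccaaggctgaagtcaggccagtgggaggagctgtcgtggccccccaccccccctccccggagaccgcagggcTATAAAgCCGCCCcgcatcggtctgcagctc
Ina, chr19:47014561-47014680, plus strand: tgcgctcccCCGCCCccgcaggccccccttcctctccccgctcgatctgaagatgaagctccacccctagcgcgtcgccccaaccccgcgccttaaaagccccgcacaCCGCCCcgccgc
In the 250 bases before the start, TATAAA was found 31 bases upstream in Prph, and in none of the other 3 genes, and 12.4% of 32851 promoters of that length hold it. GGGCGG was found in all 4, with 1 match in Prph, 2 in Ina, 2 in Tubb3 and 5 in Map2, and 32.7% of promoters hold it. CCAAT was found once, in Tubb3, and 33.8% of promoters hold it. CANNTG, the E-box of neuronal basic helix-loop-helix factors, was found once, in Ina (66.2% of promoters), and TAAT, the homeodomain core, in none of the 4 (54.9%). The motifs do not overlap in the stretches shown, and a match is only a run of letters.

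In the oculomotor cultures the question was which cytoskeleton genes mark the GFP-positive cells, and 9 of the 10 were higher in the GFP-positive than in the GFP-negative samples. The light and medium neurofilament genes, Gap43 and Tubb3 rose most, by log2 changes of 6.16 to 7.10, and Nefh was the exception. Of all 22179 genes tested, 3.81% were called higher in this comparison (limma on log2(RPKM + 1), Benjamini-Hochberg adjusted p under 0.05). These were 845 of 1364 called genes, and 884 of 1725 after median-of-ratios rescaling. The median log2 change of the 10 genes was 4.06 against 0.00 for all genes.

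Nefl, the light subunit on which neurofilaments assemble, lay between 215 and 585 RPKM (median 422) in oculomotor GFP-positive samples and between 0.72 and 3.61 RPKM (median 2.01) in GFP-negative ones. Its log2 change was 6.98 ± 0.72 (SE, n = 6 and 6, limma adjusted p = 9.23e-07), and the lowest GFP-positive sample was far above the highest GFP-negative one. Nefm, the medium subunit, lay between 65.7 and 337 RPKM (median 296) against 0.42 to 0.97 RPKM (median 0.68), a log2 change of 7.10 ± 0.60 (limma adjusted p = 4.24e-08). The RPKM of Nefm in the GFP-negative samples rested on 7 to 21 reads, and its values are subject to the shared bases named above. Ina, alpha-internexin, lay between 45.4 and 201 RPKM (median 139) against 0.43 to 9.78 RPKM (median 4.30), with a log2 change of 4.86 ± 0.66 (limma adjusted p = 4.74e-05) and no overlap. Prph, the peripherin gene (chr15:99055174-99058978, plus strand), was lower, at 4.19 to 34.5 RPKM (median 16.8) against 0.33 to 9.42 RPKM (median 2.70). Its groups overlapped, since 2 GFP-positive samples (numbered 3 and 6) were below the highest GFP-negative one, and the log2 change of 2.04 ± 0.56 (limma adjusted p = 0.0272) was lost without any of GFP-positive 2, 4 or 5 or GFP-negative 3, 5 or 6, up to an adjusted p of 0.0768. Nefh, the heavy subunit, was near the floor in both fractions, at 0 to 0.71 RPKM (0 to 12 reads) in GFP-positive and 0.05 to 1.81 RPKM (1 to 21 reads) in GFP-negative samples, with a log2 change of -0.21 ± 0.30 (limma adjusted p = 0.862, 95% confidence interval -0.82 to 0.41).

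Among the microtubule genes Tubb3, the neuronal beta-tubulin (chr8:123411424-123422015, plus strand), had the highest median of all 10 genes in oculomotor GFP-positive samples. It lay between 285 and 848 RPKM (median 608) in these and between 2.43 and 19.8 RPKM (median 5.33) in GFP-negative samples, a log2 change of 6.16 ± 0.68 (limma adjusted p = 2.62e-06). Stmn2, a stathmin that binds free tubulin in growing neurites (chr3:8509360-8561606, plus strand), was at 167 to 175 RPKM in GFP-positive replicates 1 to 4 and at 305 and 241 RPKM in replicates 5 and 6. The GFP-negative samples lay between 7.74 and 38.04 RPKM (median 21.8), the highest background of the 10 genes in this fraction. Its log2 change was 3.26 ± 0.71 (limma adjusted p = 0.00608). Map2, which marks dendrites and cell bodies, was held in a narrow range of 7.61 to 11.5 RPKM (median 9.41) against 0.13 to 1.90 RPKM (median 0.72), a log2 change of 2.53 ± 0.63 (limma adjusted p = 0.015). Mapt, which encodes the axonal protein tau (chr11:104231390-104332090, plus strand), lay between 3.92 and 10.05 RPKM (median 6.24) against 0.19 to 0.89 RPKM (median 0.55), a log2 change of 2.33 ± 0.49 (limma adjusted p = 0.00457). Because Mapt and Map2 were near or below 1 RPKM in the GFP-negative samples, the offset of 1 RPKM understates their change, and with an offset of 5 RPKM neither passed (log2 change 1.08 and 1.30, limma adjusted p = 0.0891 and 0.0536).

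Gap43, the membrane protein of growth cones (chr16:42248442-42340651, minus strand), lay between 266 and 2140 RPKM (median 480) in oculomotor GFP-positive samples and between 2.52 and 13.1 RPKM (median 5.13) in GFP-negative ones. Its log2 change was 6.82 ± 0.94 (limma adjusted p = 5.21e-05), with no overlap. In all, 8 of the 10 genes had no overlap between the fractions, all but Nefh and Prph, where 4.73% of 18932 genes tested in this way were higher with no overlap. The 9 called genes were also called in the fit with a block for each pair of fractions within a culture, in which 8.22% of genes were called higher (3644 genes called in either direction, against 1364 without the block). Within replicates 1 to 4 alone 6 of them passed (1.72% of genes called higher), all but Prph, Mapt and Stmn2, and within replicates 5 and 6 alone 8 passed (2.46%), all but Map2.

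The fractions also differed in cell type markers, whose part in these steps was not tested. The 7 general neuron markers summed to 299 to 506 RPKM in oculomotor GFP-positive and 5.95 to 23.1 RPKM in GFP-negative samples, and the 6 pluripotency markers to 0.32 to 259 RPKM and 684 to 9876 RPKM. Most of the pluripotency sum was Dppa5a (593 to 9806 RPKM in GFP-negative samples), while Pou5f1 lay between 1.29 and 49.1 RPKM in these and was at 0 in 3 of the 6 GFP-positive ones. The 6 proliferation markers summed to 28.8 to 227 RPKM and 229 to 336 RPKM. The 6 glial markers were low in both, with sums of 0.34 to 3.64 RPKM and 4.58 to 10.1 RPKM. Among them Slc1a3 was at 0.05 to 1.59 RPKM and 3.52 to 7.90 RPKM, and Sox10 at 0 in all 12 samples. In this culture the GFP-negative samples were the ones with low neuronal and high stem cell markers, with no overlap in either sum.

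**Figure D1:**
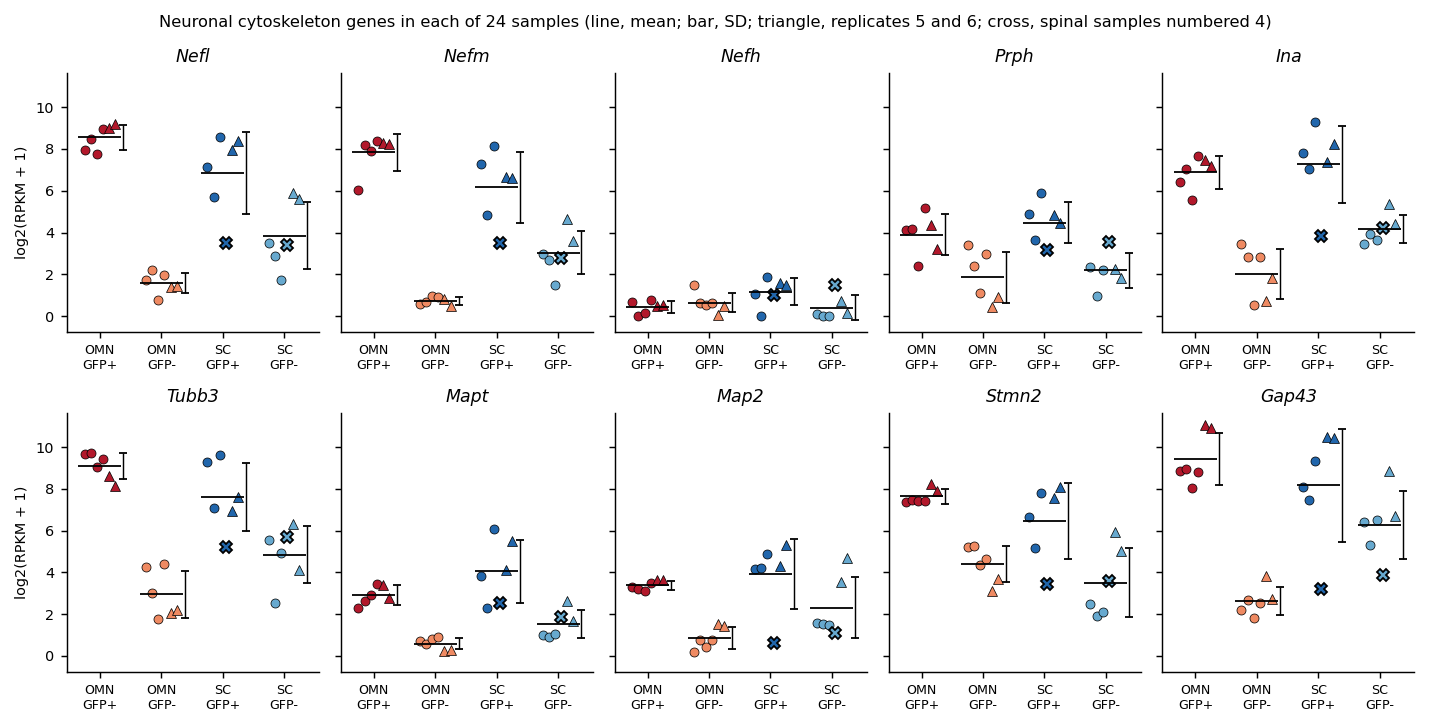
The vertical axis is log2(RPKM + 1) of each of the 10 genes and the horizontal axis the 4 groups (OMN, oculomotor; SC, spinal; GFP+ and GFP-), with 1 point per sample, the group mean as a line and the SD as a bar. Triangles are replicates 5 and 6 and crosses the spinal samples numbered 4, which sit low in the spinal GFP-positive group for Nefl (10.2 RPKM), Map2 (0.56 RPKM) and Gap43 (8.24 RPKM), while Nefh stays near 0 in all 4 groups.

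In the spinal cultures the same comparison found 7 of the 10 genes higher in GFP-positive than in GFP-negative samples, namely Nefl, Nefm, Prph, Ina, Tubb3, Mapt and Stmn2. Of all genes 0.397% were called higher. The log2 changes of the 7 ran from 2.29 to 3.14, and those of Nefh, Map2 and Gap43 did not pass. The median over the 10 genes was 2.65, against 0.00 over all genes. Without the pair numbered 4 the count was 8, with Map2 added, where 1.36% of genes were called higher, and the median was 3.17.

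Nefl lay between 10.2 and 384 RPKM (median 192) in spinal GFP-positive samples and between 2.36 and 58.1 RPKM (median 10.02) in GFP-negative ones, and its log2 change was 3.03 ± 0.72 (SE, n = 6 and 6, limma adjusted p = 0.0325). Nefm lay between 10.1 and 278 RPKM (median 97.5) against 1.84 to 23.7 RPKM (median 6.29), with a log2 change of 3.14 ± 0.60 (limma adjusted p = 0.00642). For both genes the lowest GFP-positive value was that of the library numbered 4, and without this pair the changes were both 3.63 (limma adjusted p = 0.00167 for Nefl and 0.000302 for Nefm). Ina was the filament gene with the highest single value, 631 RPKM in spinal GFP-positive 3, and ranged from 13.4 RPKM (median 193) against 9.90 to 39.9 RPKM (median 15.8) in GFP-negative samples. Its log2 change was 3.10 ± 0.66 (limma adjusted p = 0.0147). Prph lay between 7.82 and 57.9 RPKM (median 24.5) against 0.95 to 10.6 RPKM (median 3.68), a log2 change of 2.29 ± 0.56 (limma adjusted p = 0.0365). Nefh (chr11:4938754-4948064, minus strand) reached 2.60 RPKM at most in spinal GFP-positive samples (0 to 58 reads) and 1.83 RPKM in GFP-negative ones. Its log2 change of 0.75 ± 0.30 did not pass (limma adjusted p = 0.325).

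Tubb3 lay between 36.4 and 785 RPKM (median 166) in spinal GFP-positive samples and between 4.74 and 79.3 RPKM (median 37.5) in GFP-negative ones, a log2 change of 2.77 ± 0.68 (limma adjusted p = 0.038). Stmn2 lay between 9.92 and 274 RPKM (median 144) against 2.74 to 60.5 RPKM (median 7.87), a log2 change of 2.94 ± 0.71 (limma adjusted p = 0.0362). Mapt had its widest range here, 3.94 to 65.8 RPKM (median 14.7) against 0.86 to 5.16 RPKM (median 1.61), and a log2 change of 2.54 ± 0.49 (limma adjusted p = 0.00744). The high GFP-negative values of Nefl and Stmn2 were those of samples 5 and 6, which were also the 2 highest for Map2. Map2 was at 0.56 to 39.0 RPKM (median 18.2) in GFP-positive samples and at 1.16 to 24.5 RPKM (median 1.94) in GFP-negative ones. Its log2 change of 1.60 ± 0.63 did not pass with all samples (limma adjusted p = 0.317) and was 2.01 ± 0.49 without the pair numbered 4 (limma adjusted p = 0.0234).

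Gap43 lay between 8.24 and 1454 RPKM (median 454) in spinal GFP-positive samples and between 13.6 and 459 RPKM (median 87.7) in GFP-negative ones. Its GFP-negative level was the highest of the 10 genes in that group, and 3 of the 6 GFP-positive samples were within the GFP-negative range or below it. The log2 change of 1.90 ± 0.94 did not pass (limma adjusted p = 0.496), and it passed with a block for each pair of fractions (1.90 ± 0.43, limma adjusted p = 0.0349), a fit that called 8 of the 10 genes and 1.33% of all genes higher (649 genes in either direction, against 272). Setting the pair numbered 4 aside, every one of the genes except Nefh was higher in the GFP-positive sample of each of the other 5 pairs, which was not counted for other genes. With both that block and this omission all 10 passed, where 3.05% of genes were called higher.

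With all 12 spinal samples none of the 10 genes was free of overlap between the fractions (0.0766% of genes were, and higher in GFP-positive samples), and without the pair numbered 4 Nefm, Prph, Ina and Tubb3 were, where 1.08% of genes were higher with no overlap. The calls rested on the spread shared with the oculomotor samples: in a limma fit of the 12 spinal samples alone none of the 10 passed (lowest adjusted p = 0.142), where 0.00479% of genes were called higher. In that fit 7 of the 10 and 1372 of all 20877 genes were at an unadjusted p under 0.05. Within replicates 1 to 4 none passed by limma, with 0% of genes called higher, while 8 of the 10 and 1610 of all 20942 genes were at an unadjusted p under 0.05. Within replicates 5 and 6 Nefl, Nefm, Prph and Stmn2 passed (0.584% of genes called higher). After median-of-ratios rescaling Nefl and Stmn2 did not pass (limma adjusted p = 0.0591 and 0.0559). Leaving out spinal GFP-positive 1, 3 or 6 or spinal GFP-negative 1, 2 or 3 left 3 called, Nefm, Ina and Mapt, the genes called in all 24 omissions of 1 sample. Leaving out spinal GFP-positive 5 left 4, adding Tubb3 to these, and leaving out spinal GFP-positive 4 gave 9, all but Nefh. The call of Prph was also lost without spinal GFP-negative 5 or 6, and that of Tubb3 without oculomotor GFP-negative 2, spinal GFP-positive 2 or spinal GFP-negative 6.

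Cell type markers also differed between the spinal fractions, and their part was not tested. General neuron markers summed to 24.9 to 491 RPKM in GFP-positive and 24.9 to 91.8 RPKM in GFP-negative samples, so every spinal GFP-negative sample was above every oculomotor one (5.95 to 23.1 RPKM). Pluripotency markers had the higher median in the GFP-positive samples, at 14.4 to 12400 RPKM (median 923) against 74.4 to 5785 RPKM (median 231), the reverse of the oculomotor cultures. The pair numbered 4 had 5142 and 5785 RPKM, and the 12400 RPKM were in GFP-positive 5. Most of the pluripotency sum was again Dppa5a, with medians of 901 RPKM in GFP-positive and 223 RPKM in GFP-negative samples. Its highest value was 12328 RPKM in a GFP-positive sample. Pou5f1 was 2.15 RPKM in GFP-positive 5, against 31.5 and 50.3 RPKM in the pair numbered 4. The sum and Pou5f1 thus ordered these samples differently. Markers of neural progenitors (8 genes) summed to 102 to 1391 RPKM (median 251) in GFP-positive and 222 to 2597 RPKM (median 913) in GFP-negative samples. Endoderm markers (5 genes) summed to 2.07 to 22.5 RPKM (median 7.51) against 16.0 to 85.1 RPKM (median 67.8), and mesenchyme markers (4 genes) to at most 0.71 RPKM against 0.31 to 24.6 RPKM (median 6.59). In the oculomotor cultures the medians of these 3 sums were 57.3 against 311 RPKM, 5.33 against 39.0 RPKM and 0.69 against 1.34 RPKM.

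**Figure D2:**
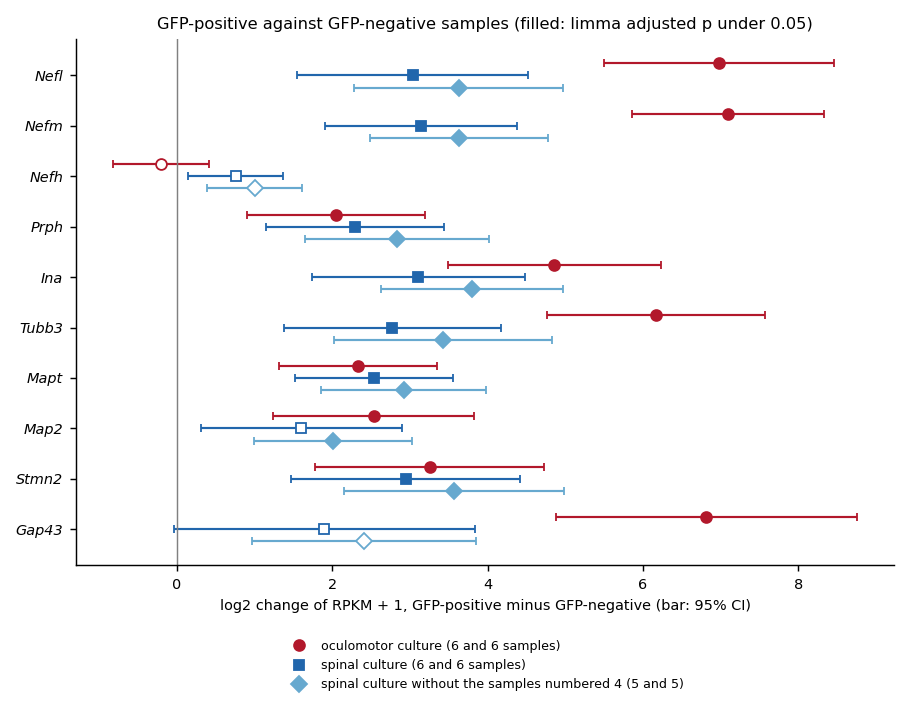
The horizontal axis is the log2 change of RPKM + 1 from GFP-negative to GFP-positive samples with its 95% confidence interval, for the 10 genes on the vertical axis, in the oculomotor culture (circles), the spinal culture (squares) and the spinal culture without the samples numbered 4 (diamonds). Filled symbols passed the limma test, which 9 of 10 did in oculomotor cultures, 7 in spinal cultures and 8 after the omission.

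Whether the step between fractions differed between the cultures was tested as the interaction of culture and fraction. Nefm alone passed, with a step larger by 3.95 ± 0.85 on the log2 scale in the oculomotor cultures (limma adjusted p = 0.0351), where 0.262% of genes were called in that direction. The steps of Gap43 (difference 4.92 ± 1.33, limma adjusted p = 0.135), Nefl (3.94 ± 1.02, limma adjusted p = 0.112) and Tubb3 (3.39 ± 0.96, limma adjusted p = 0.166) did not pass. For Prph, Mapt and Stmn2 the estimated differences were -0.25, -0.21 and 0.31, with 95% confidence intervals that reached from -1.87 to 1.38, from -1.65 to 1.24 and from -1.77 to 2.40. With the block for each pair of fractions Nefm, Nefl and Gap43 passed (limma adjusted p = 0.025, 0.0296 and 0.0017), where 0.852% of genes were called higher. Without the pair numbered 4 Nefm (3.47, limma adjusted p = 0.0227) and Gap43 (4.41, limma adjusted p = 0.021) passed, against 0.604% of genes. The call of Nefm was kept without oculomotor GFP-positive 1, spinal GFP-positive 1, 3, 4 or 6 or spinal GFP-negative 2, 3 or 4, and was lost without each of the other 16 samples, with adjusted p-values up to 0.0713. Gap43 passed without spinal GFP-negative 4 alone (5.40, limma adjusted p = 0.0438).

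That difference involves both fractions, and the GFP-negative ones were compared directly. None of the 10 genes passed between oculomotor and spinal GFP-negative samples (limma), where 0.550% of genes were called lower in oculomotor samples. At an unadjusted p under 0.05 by limma there were 6 of the 10 and 2500 of all 22179 genes. Over all genes 91 of 213 calls were higher, and 151 of 284 after median-of-ratios rescaling. Gap43 (2.52 to 13.1 RPKM against 13.6 to 459 RPKM), Nefm (0.42 to 0.97 against 1.84 to 23.7 RPKM) and Ina (0.43 to 9.78 against 9.90 to 39.9 RPKM) were nevertheless lower in every oculomotor sample than in any spinal one, where 0.937% of genes were. The gap between the groups was narrow for Gap43 (13.1 against 13.6 RPKM) and Ina (9.78 against 9.90 RPKM). Their log2 changes were -3.64 ± 0.94, -2.28 ± 0.60 and -2.14 ± 0.66 (limma adjusted p = 0.0631, 0.0676 and 0.148). Without the pair numbered 4 these 3 and Nefl passed (limma adjusted p = 0.000876, 0.0167, 0.0338 and 0.0434), where 1.47% of genes were called lower. Without the GFP-positive library of that pair alone, which changes only the shared spread, Gap43, Nefm and Ina passed (limma adjusted p = 0.00891, 0.0215 and 0.0354). Without spinal GFP-negative 4 alone Gap43 passed (-4.12, limma adjusted p = 0.0201), and without spinal GFP-negative 3 alone Nefm did (-2.58, limma adjusted p = 0.0468). Stmn2 had the opposite sign, 7.74 to 38.04 RPKM in oculomotor and 2.74 to 60.5 RPKM in spinal GFP-negative samples, and the 95% confidence interval of its log2 change of 0.88 ran from -0.59 to 2.35.

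The study set oculomotor against spinal motor neurons, and between the GFP-positive samples none of the 10 genes passed (limma on these 12 samples, 4 at an unadjusted p under 0.05, adjusted p from 0.417 to 0.894). Of 19240 genes tested 0.603% were called in this comparison, and 1951 were at an unadjusted p under 0.05 by limma. Without spinal GFP-positive 4 again none of the 10 passed, where 0.633% of 18794 genes were called. At an unadjusted p under 0.05 by limma there were then 4 of the 10 and 1956 of all genes. The estimates pointed both ways, with Nefl (1.69), Nefm (1.67), Tubb3 (1.48), Gap43 (1.28) and Stmn2 (1.19) higher on the log2 scale in oculomotor samples and Mapt (-1.13), Nefh (-0.73), Prph (-0.58), Map2 (-0.53) and Ina (-0.38) lower. Their median was 0.41 against -0.04 for all genes, and without spinal GFP-positive 4 it was -0.24 against -0.01, so the sign of the median rested on 1 library.

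The intervals leave room for sizeable differences. For Nefl the 95% confidence interval of the log2 change ran from 0.08 to 3.30 and without the library numbered 4 from -0.11 to 2.14, while 3 of the 6 oculomotor samples lay above the highest spinal one. For Nefm 4 of the 6 did, and the interval of 0.16 to 3.18 became -0.11 to 2.39. Tubb3 changed from 1.48 ± 0.66 to 1.00 ± 0.56 and Gap43 from 1.28 ± 1.08 to 0.29 ± 0.73. Map2 was at 7.61 to 11.5 RPKM in oculomotor GFP-positive samples and at 16.8 to 39.0 RPKM in 5 of the 6 spinal ones, all 5 above every oculomotor sample. With the library numbered 4, at 0.56 RPKM, its log2 change was -0.53 ± 0.62 (limma adjusted p = 0.81), and without that library it was -1.19 ± 0.27 (limma adjusted p = 0.0905), still not past the threshold, where 1.07% of genes were lower with no overlap. Mapt was higher in 4 of the 6 spinal samples (13.2 to 65.8 RPKM) than in any oculomotor sample, and its log2 change was -1.13 ± 0.59 with that library and -1.44 ± 0.57 without it (limma adjusted p = 0.556 and 0.39). No gene of the 10 passed within replicates 1 to 4 or within replicates 5 and 6. At an unadjusted p under 0.05 by limma, replicates 1 to 4 had 1 of the 10 and 1355 of all 17863 genes. Replicates 5 and 6 had 6 of the 10 and 2532 of all 16187 genes.

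**Figure D3:**
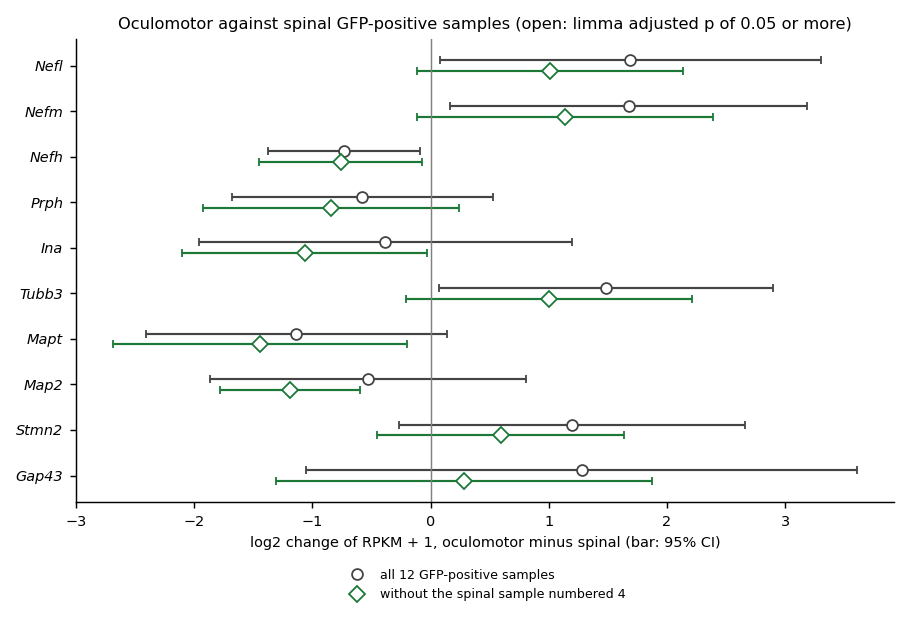
The horizontal axis is the log2 change of RPKM + 1 between oculomotor and spinal GFP-positive samples (positive values, higher in oculomotor) with its 95% confidence interval, for the 10 genes on the vertical axis, with all 12 samples (circles) and without spinal GFP-positive 4 (diamonds). All symbols are open because no gene passed, and the interval of Map2 narrows from a width that includes 0 to -1.78 to -0.59 after the omission.

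The 5 filament genes differed between the cultures in their proportions, described here without a test because this measure was chosen after the values were seen. Summed over the 5 genes, RPKM was 416 to 1061 (median 909) in oculomotor and 42.6 to 1354 (median 542) in spinal GFP-positive samples. Ina held 9.08% to 20.02% of this sum in oculomotor samples and 30.5% to 59.1% in spinal ones, which did not overlap, also in the library numbered 4 (31.5%). Nefl held 43.1% to 60.1% (median 48.3%) in oculomotor and 23.0% to 45.5% (median 27.0%) in spinal samples, with spinal samples 5 and 6 (45.5% and 44.0%) inside the oculomotor range. Nefm held 15.8% to 47.0% and 12.6% to 28.3%. Prph took 0.80% to 3.97% in oculomotor and 2.85% to 18.3% in spinal samples, the highest in the library numbered 4, and Nefh took at most 2.40% in any of the 12. The bases shared by Nefl and Nefm affect the split between these genes, and the share of Ina only through their sum. The merged length used for Nefm lowers its share and raises those of the other genes.

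**Figure D4:**
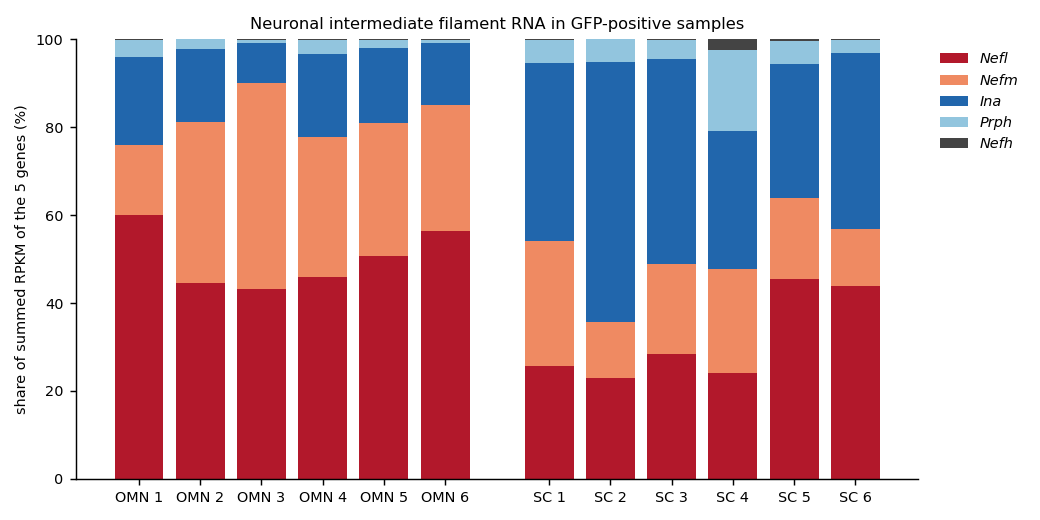
Each bar is 1 GFP-positive sample (OMN, oculomotor; SC, spinal; replicate numbers on the horizontal axis) and the vertical axis the share in percent of the RPKM summed over Nefl, Nefm, Ina, Prph and Nefh. The Ina segment spans at most 20.02% in the oculomotor bars and at least 30.5% in the spinal ones.

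RPKM is per length, so levels can be ordered between genes within limits set by the lengths used. Nefm and Map2 are named above, Mapt was divided by 7531 merged exon bases although its longest transcript has 5253, the length behind Prph (1865 bases) differs from its GENCODE exons (1999 bases), and for Stmn2 no length was found. By their medians in oculomotor GFP-positive samples Tubb3 (608 RPKM), Gap43 (480 RPKM) and Nefl (422 RPKM) came first, and the ranges of these neighbours overlapped. Nefm (296 RPKM), Stmn2 (174 RPKM) and Ina (139 RPKM) followed, again with overlapping ranges. The place of Nefm in this order and in the spinal one depends on the length used. A clear step came before Prph (16.8 RPKM), whose highest sample (34.5 RPKM) was below the lowest of Ina (45.4 RPKM), and Nefh (0.41 RPKM) lay below the lowest value of any other gene. In spinal GFP-positive samples the order was Gap43 (454 RPKM), Ina (193 RPKM), Nefl (192 RPKM), Tubb3 (166 RPKM), Stmn2 (144 RPKM) and Nefm (97.5 RPKM), and the ranges of all 6 overlapped. The last 4 places were the same as in oculomotor samples: Prph, Map2, Mapt and Nefh.

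Replicates 5 and 6, the more deeply sequenced samples, stood apart from replicates 1 to 4 in some of the 10 genes. In oculomotor GFP-positive samples Nefl, Map2, Stmn2 and Gap43 were higher in both than in any of replicates 1 to 4, as 8.78% of 16466 genes were, and Tubb3 was lower in both, as 26.2% were. Gap43 was at 266 to 496 RPKM in replicates 1 to 4 and at 2140 and 1938 RPKM in replicates 5 and 6. Tubb3 went the other way, 523 to 848 RPKM against 393 and 285 RPKM. Nefl was at 215 to 488 RPKM against 516 and 585 RPKM, Stmn2 at 167 to 175 RPKM against 305 and 241 RPKM, and Map2 at 7.61 to 10.1 RPKM against 11.5 and 11.3 RPKM. The gaps of Nefl and Map2 were narrow beside that of Gap43. In spinal GFP-positive samples Gap43 was the 1 gene of the 10 with no overlap, at 8.24 to 638 RPKM in replicates 1 to 4 and at 1454 and 1385 RPKM in replicates 5 and 6 (9.77% of genes were higher and 15.9% lower in this way), while Tubb3 was at 36.4 to 785 RPKM and at 121 and 195 RPKM. The labels do not say what sets these replicates apart. The methods name different sequencer models and read lengths and do not assign them to samples. The part of depth, sequencer or read length was not tested. With 2 against 4 samples no test was made. A count of 1 of the 10 genes is below the share of all genes for lower values in oculomotor samples. It is near that share for higher values in spinal samples, so it says little about the 10.

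**Figure D5:**
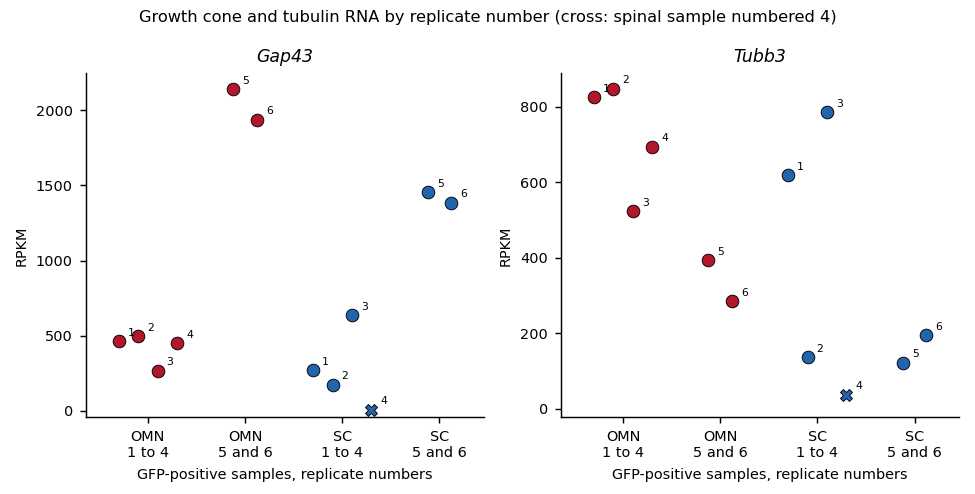
The vertical axes are RPKM of Gap43 (left) and Tubb3 (right) in GFP-positive samples, by culture (OMN, oculomotor; SC, spinal) and replicate number, with 1 point per sample. Gap43 lies between 1385 and 2140 RPKM in the 4 samples numbered 5 and 6 and between 8.24 and 638 RPKM in the other 8, and Tubb3 of the oculomotor samples is lower in the samples numbered 5 and 6 (393 and 285 RPKM) than in the others (523 to 848 RPKM).

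After the group means were removed, most pairs of the 10 genes varied together from sample to sample, a measure not computed for other genes. Over all 24 samples 44 of the 45 gene pairs had a positive Pearson correlation of log2(RPKM + 1), with a median of 0.63, and over the 12 GFP-positive samples the median was 0.69. In the 6 spinal GFP-positive samples the median was 0.84 with the library numbered 4 and 0.76 without it. In the 6 oculomotor ones it was 0.41, with 36 of 45 pairs above 0. There Tubb3 had a negative correlation with every other gene but Prph (0.41), lowest with Stmn2 (-0.77) and Gap43 (-0.75). These are descriptions: the genes share libraries, and sorting purity and depth were not separated from them. Outside the 10 genes, the profiles most like their mean over the 24 samples, among 6825 genes with a mean of at least 5 RPKM, were those of Dcx, a microtubule-associated protein of migrating neurons (r = 0.97), Rtn1, a reticulon of the neuronal endoplasmic reticulum (0.96), Sez6l2 (0.95), Kif5a, a kinesin that carries cargo along axons (0.94), Syt4, a synaptotagmin (0.94), Cdk5r1, the activator of the kinase CDK5 (0.93), Ncam1, a cell adhesion molecule (0.93), and Elavl2, a neuronal RNA-binding protein (0.93). Dcx, the first of these, was at 15.3 to 28.7 RPKM in oculomotor and 2.67 to 72.9 RPKM in spinal GFP-positive samples and at or below 0.29 RPKM in oculomotor GFP-negative ones, and it is also 1 of the 7 general neuron markers.

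Further genes of the cytoskeleton were grouped by function in 6 lists, to be read against the shares of all genes called in the same comparison, 3.81% higher and 2.34% lower in the oculomotor cultures. A single call in a short list says little beside such shares. In the oculomotor cultures 10 of 21 further microtubule-associated proteins and stathmins were higher in GFP-positive samples and none lower, led by Stmn4 (log2 change 5.13 ± 0.79, limma adjusted p = 0.000177) and Stmn3 (4.34 ± 0.85, limma adjusted p = 0.00222), both stathmins of neurons. Of 13 growth cone proteins 7 were higher, led by Crmp1 (3.61 ± 0.57) and Dpysl3 (3.40 ± 0.49), which relay guidance signals to microtubules. Of 9 proteins of the axonal membrane skeleton 4 were higher, led by the adducin Add2 (3.28 ± 0.50) and the ankyrin Ank2 (2.25 ± 0.30). Only 2 of 11 other tubulins were, Tubb2b (2.89 ± 0.74) and Tubb2a (2.40 ± 0.59), and 1 of 11 kinases of tau and neurofilaments and their activators, Cdk5r1 (3.01 ± 0.52). Median log2 changes of these lists lay between 0.72 and 1.97, against 0.00 over all genes. Among 12 intermediate filament genes of other cells Synm was higher (1.35 ± 0.34) and the epithelial keratins Krt18 and Krt8 were lower (-3.66 ± 0.77 and -3.15 ± 0.76), and the list had a median of -0.49.

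In the spinal cultures 3 genes of the lists were called higher and 3 lower, where 0.397% of all genes were called higher and 0.830% lower. Dcx (2.43 ± 0.51, limma adjusted p = 0.0137) and Camsap2 (1.23 ± 0.27), which caps microtubule minus ends, were the 2 microtubule-associated genes called higher, and Dpysl3 (2.04 ± 0.49) was the 1 growth cone gene. Krt8 (-3.87 ± 0.76), Krt18 (-3.28 ± 0.77) and another keratin, Krt19 (-2.31 ± 0.50), were called lower. Without the pair numbered 4 the counts called higher were 5 of 21, 3 of 13, 3 of 9 membrane skeleton genes, 1 of 11 kinases and 0 of 11 tubulins (4 at an unadjusted p under 0.05), with 3 intermediate filament genes of other cells called lower. Of all genes 1.36% were then called higher and 1.54% lower, and 2866 of 21837 were at an unadjusted p under 0.05 by limma. Between oculomotor and spinal samples, GFP-positive or GFP-negative, and for the interaction, no gene of the 6 lists passed with all samples (limma, with 0 to 5 genes of a list at an unadjusted p under 0.05). Over all genes that unadjusted p was reached by 1951 of 19240, 2500 of 22179 and 1582 of 22179, in this order. Without the pair numbered 4, 3 microtubule-associated genes, 1 growth cone gene and 1 intermediate filament gene were lower in oculomotor than in spinal GFP-negative samples (1.47% of all genes). The other 2 comparisons, GFP-positive groups and interaction, still had none (0 to 5 genes of a list at an unadjusted p under 0.05 by limma, beside 1956 of 18794 and 1924 of 21837 genes).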

How the data were processed

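RNA-seq was done on 24 samples in 4 groups of 6. Sorted cells (5000 per sample, as stated in the methods) were lysed, and libraries were made by SMART-seq2 with Tn5 tagmentation, which amplifies poly(A) RNA and keeps neither strand nor molecular identifiers, so that the reads of a gene are not independent molecules. The authors mapped reads to mm10 with HISAT2 (version 2.0.3 in the submitters' processing notes, which also list DESeq2 1.12.4) and computed RPKM with rpkmforgenes. The deposited table holds these RPKM values for 22889 entries, and its gene annotation was not given in the sources used here.

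A gene needed a value over 0 RPKM in 2 or more fitted samples to enter a linear model of log2(RPKM + 1) with limma 3.58.1 (lmFit, contrasts.fit, eBayes with trend; R 4.3.3). Adjusted p-values are Benjamini-Hochberg over all genes fitted, with a threshold of 0.05. Oculomotor and spinal GFP-positive samples were fitted alone (12 samples), and the other contrasts on all 24 samples in 4 groups without a block. The offset understates changes of genes near or below 1 RPKM. Tables and figures used Python 3.11.15, numpy 2.4.6, pandas 2.3.3 and matplotlib 3.10.9. The fits of the GFP-positive groups and of the oculomotor fractions were tried on simulated independent values. The simulation held no correlation between samples and did not cover the other contrasts, so it does not bear on those.

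Depth was taken from the RPKM steps of 5911 genes with 1 transcript in GENCODE M21, where 95.8% to 97.8% of a sample's low values were whole reads (tolerance 2%). The number of reads limits Nefh most (0 to 58 reads). No count table was at hand, so a count model (edgeR or DESeq2) was not run.

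The replicate numbers were taken to pair the fractions of a culture, since deviations from the group means correlated in 6 of 6 same-numbered pairs of each culture (0.38 to 0.73 in oculomotor and 0.42 to 0.66 in spinal cultures, 11952 genes). The own number gave the highest correlation in 6 of 6 oculomotor and 5 of 6 spinal pairs. Across cultures 4 of 6 numbers passed 0.1 in either fraction, and these samples were not treated as pairs. Numbers 5 and 6 were as alike across cultures as pairs within one, at 0.71 and 0.60 in GFP-positive and 0.61 and 0.57 in GFP-negative samples. Alternatives covered the offset, the filter, median-of-ratios rescaling, blocks, sample weights, the replicate sets, the samples fitted and the omission of samples, with those that drop the spinal samples numbered 4 or 2 added after seeing the data. The 10 genes, the 6 lists and the rule for names were chosen with earlier results of these data known. All 10 genes are named, together with the 2 called genes of each list with the largest change in each direction and the 8 genes most correlated with the mean of the 10. Krt19 was added after its value was seen.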

Additional observations from a re-analysis of the deposited data

Results flagged for a closer look

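In 6 of 40 combinations of gene and group, 1 sample stood apart from the other 5 by more than the critical value of Dixon's ratio, taken on RPKM without logs. The test flags about 1 in 20 groups by chance when values are normally distributed. RPKM values need not be, so the 6 cannot be read as an excess. All 6 were the highest sample of a GFP-negative group. Nefh was 1.81 RPKM in oculomotor GFP-negative 1, against 0.56 RPKM in the next sample. In spinal GFP-negative 4 Nefh was 1.83 RPKM (next 0.64 RPKM) and Prph 10.6 RPKM (next 4.11 RPKM), in the pair that went against its labels. In spinal GFP-negative 5 Ina was 39.9 RPKM (next 20.2 RPKM) and Gap43 459 RPKM (next 102 RPKM). Gap43 was 13.1 RPKM in oculomotor GFP-negative 5 (next 5.61 RPKM).

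The step of Nefm between fractions differed between the cultures, by 3.95 on the log2 scale (limma adjusted p = 0.0351), in a gene whose values are subject to the bases it shares with Nefl.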

How the results depend on the processing

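The number of the 10 genes called in the spinal fractions (7) was 0 with replicates 1 to 4, 4 with replicates 5 and 6, 0 in a fit of the 12 spinal samples, 4 without spinal GFP-negative samples 2 and 4, and 3 to 9 when 1 sample was left out. Between the GFP-negative fractions (0) it was 2 with an offset of 0.1 RPKM, with a mean of at least 1 RPKM and in a fit of the 12 GFP-negative samples, 1 with the replicate block or without spinal GFP-negative samples 2 and 4, 4 with sample weights, with replicates 5 and 6 or without the spinal samples numbered 4, 3 when that omission was joined by rescaling, 6 without the spinal samples numbered 2 and 4, and 0 to 3 when 1 sample was left out. For the interaction (1) it was 0 with an offset of 5 RPKM or replicates 1 to 4, 4 with sample weights, 3 with the replicate block within culture, without the spinal samples numbered 2 and 4 (2 steps larger and 1 smaller in oculomotor cultures) or with that block and without the samples numbered 4, and 0 to 2 when 1 sample was left out. It was 2 with the replicate block across cultures, with replicates 5 and 6, without spinal GFP-negative samples 2 and 4, and without the spinal samples numbered 4 with or without rescaling. It stayed 0 between the GFP-positive groups in all alternatives. Apart from these and the calls given in the report, the blocks changed no call of the 10 genes.

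Estimates that changed sign were all of genes not called in that comparison. Between GFP-positive groups these were Gap43 (-0.14 without the spinal samples numbered 2 and 4) and Ina (-1.07 to 0.025 when 1 sample was left out). Replicates 5 and 6 alone gave Nefh 0.22 between oculomotor fractions, Nefh -0.15 and Stmn2 -2.06 between GFP-negative fractions, and Prph 0.50 and Mapt 0.17 for the interaction. Replicates 1 to 4 alone gave Prph 0.19 between GFP-negative fractions and Stmn2 -0.69 for the interaction. The interaction was 0.51 for Mapt with an offset of 0.1 RPKM. For Stmn2 it was -0.31 without the spinal samples numbered 4, with or without the block, -0.26 when rescaling was joined to that omission, and -0.38 without the samples numbered 2 and 4. With 1 sample left out it ranged from -0.54 to 0.057 for Prph, -0.56 to 0.20 for Mapt and -0.29 to 0.64 for Stmn2. The cause of these changes was not tested.

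Over all genes the counts called were 116, 1364, 272, 213 and 71 for the GFP-positive groups, the oculomotor fractions, the spinal fractions, the GFP-negative groups and the interaction, and ranged over the alternatives from 13 to 342, 476 to 3795, 1 to 1238, 39 to 751 and 10 to 499. Nefh was not tested with a mean of at least 1 RPKM. Rescaling moved the median of all genes by less than 0.1 on the log2 scale.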
